A study of Mus musculus with 20 samples.

Results

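Intestinal tissue holds many T cells, and 10 genes that mark them, in particular the cytotoxic cells lodged among the epithelial cells, were measured here in mouse intestine after activation of the BRAF V600E oncogene and after inhibition of MEK. The genes were Cd3d, Cd3e, Cd3g, Cd4, Cd8a, Cd8b1, Itgae, Gzma, Gzmb and Nkg7, taken as all probes that carry one of these gene names on a 1-colour Agilent mouse microarray. They were 10 of 25043 named genes, read by 16 of 44334 named probes. Each of 20 C57BL6/j mice gave 1 array of total RNA from intestinal tissue. The first experiment compared 6 Cre control mice (VillinCreER/0, which carry a tamoxifen-activated Cre recombinase driven in the gut epithelium by the Villin promoter) with 6 BRAFV600E mice (VillinCreER/0/Braf V600E-LSL/+), which in addition express mutant Braf from its own locus once Cre has acted. Cre is thus driven in epithelial cells, whereas the genes described here belong to lymphocytes of the same tissue. These 12 mice were aged 8 to 12 weeks, both groups received 3 daily injections of 2 mg tamoxifen, and tissue was taken 3 days after the last one. The second experiment compared 4 mice given the MEK inhibitor PD184352 (MEKi) with 4 given its carrier of DMSO and Cremophor EL (Vehicle), in 3 daily doses after 2 injections of 1 mg tamoxifen. The labels do not state the genotype or age of these 8 mice, and figure legends of the study give them as carriers of the mutant allele. No array of one experiment was set against the other, as their slides differed. Between 60.8% and 76.8% of the spots of an array were well above background, and no spot was saturated.

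The CD3 delta, epsilon and gamma chains carry the signal of the T cell receptor into the cell, and no mature T cell lacks them. CD4 and CD8 are coreceptors that bind MHC class II and class I, respectively, and CD8 occurs on intraepithelial lymphocytes both as a heterodimer of alpha and beta chains and as a homodimer of alpha chains. Integrin alpha E (CD103, the Itgae product) holds lymphocytes to E-cadherin on epithelial cells, granzymes A and B are proteases delivered into target cells, and NKG7 is a membrane protein of cytotoxic granules.

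Of the 10 genes, 5 had 1 probe and 5 had several, so that a gene could be read at different positions of its transcript. The probes below are shown because their gene had a second probe that behaved differently (Cd4, Cd8a) or because the interval they map to is longer than the probe itself (Cd3d by 172 bases, Itgae by 1399 bases). Coordinates are those of the scanner files, on mouse build mm9, sequences are 60 bases, 5′ to 3′, with no part marked, and the exon or UTR in which a probe lies was not analysed here.
Cd4, chr6:124817706-124817765 (- strand): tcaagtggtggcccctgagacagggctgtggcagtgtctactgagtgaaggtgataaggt
Cd8a, chr6:71323885-71323944 (+ strand): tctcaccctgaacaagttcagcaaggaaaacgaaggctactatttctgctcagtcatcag
Cd3d, chr9:44794171-44794402 (+ strand): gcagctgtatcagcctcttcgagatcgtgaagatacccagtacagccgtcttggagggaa
Itgae, chr11:72959105-72960563 (+ strand): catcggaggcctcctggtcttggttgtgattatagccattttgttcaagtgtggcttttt
Below, each gene is given by its brightest probe, judged by the mean of all 20 arrays, and other probes are named as such. A level is the log2 processed signal minus the 75th percentile of the same array, so it can be compared between arrays for 1 probe but not between probes. All 10 of these probes were well above background on all 20 arrays.

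In BRAFV600E tissue 9 of the 10 genes had a lower mean than in Cre control tissue, and 2 of them, Cd3g and Cd8a, passed the test. Across all genes tested in this comparison 12.4% passed, with 6.26% lower and 6.18% higher, so 2 of 10 is to be read against that share. The median log2 fold change of the 10 genes was -0.79, beside -0.02 over all 19040 genes tested. In the second experiment the direction was the opposite one: 9 of the 10 genes had a higher mean in MEKi than in Vehicle tissue, with a median of 0.85 beside 0.04 over all 19231 genes, and Gzmb alone passed the test, where 1.98% of all genes passed, with 1.09% higher. Without scaling between arrays the median over all genes of the first comparison rose to 0.79 and that of the 10 genes to 0.02, so that the signs of Cd3d, Cd8b1, Gzmb and Itgae turned, Cd4 (1.09) and Cd8b1 (0.78) passed as higher, and the median of the 10 genes stayed below that of all genes. At an unadjusted p under 0.05 the counts were 5 of 10 in the first experiment, where 30.1% of all genes passed, and 7 of 10 in the second, where 16.4% did. The 2 experiments share no arrays. The difference between the 2 effects was not tested, and in bulk tissue fewer cells of a type and less RNA per cell cannot be told apart.

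**Figure D1:**
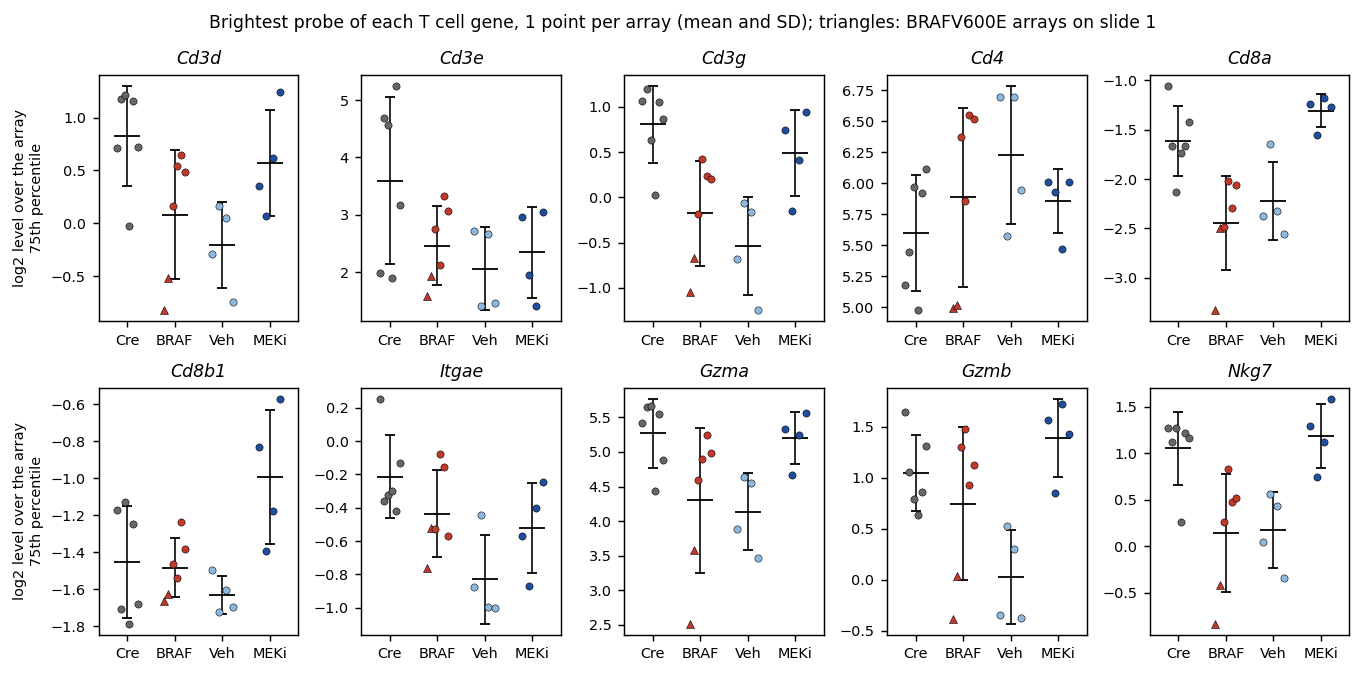
Log2 level of the brightest probe of each of the 10 genes on every array, by group (Cre, Cre control; BRAF, BRAFV600E; Veh, Vehicle), with the group mean and SD as a dash and bar. The 2 BRAFV600E arrays on slide 1 (triangles) lie below all 6 Cre control arrays for 7 of the genes, and the 4 MEKi arrays lie above the 4 Vehicle arrays for 5 of them.

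Of the CD3 chains, Cd3g, the gamma chain, ranged from 0.03 to 1.20 in the 6 Cre control arrays, with a median of 0.96. In BRAFV600E it ranged from -1.05 to 0.43, with a median of 0.01. The groups overlapped, because the lowest Cre control array (replicate 4) lay below 3 of the BRAFV600E arrays and above the other 3. Cd3g was 1.97-fold lower in BRAFV600E (log2 fold change -0.98 ± 0.28 (SE), limma adjusted p = 0.0375, n = 6 and 6). The call rested on most arrays, since leaving out any 1 of Cre control replicates 1, 2, 3, 5 and 6 or of BRAFV600E replicates 1, 2 and 3 raised the limma adjusted p to between 0.0604 and 0.0786. It was also lost with the Y-linked level as a covariate (limma adjusted p = 0.0631), with no filter on dim signal (0.0534) and without the 3 Cre control arrays of low spike-in slope described below (0.247). The Y-linked genes were high on 3 of 6 Cre control arrays (means of -1.30 to -1.26) and 4 of 6 BRAFV600E arrays (-1.24 to -0.99), and between -6.22 and -4.92 on the other 5. In MEKi the 4 arrays gave 0.75, -0.15, 0.42 and 0.94. In Vehicle they gave -0.68, -0.06, -0.16 and -1.25. Only MEKi replicate 2 lay within the Vehicle range, and the difference of 1.03 ± 0.32 (log2, SE) did not pass the test (limma adjusted p = 0.169).

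Cd3d, the delta chain, is the neighbour of Cd3g: by the RefSeq annotation of GRCm38.p6 both genes start on chromosome 9, 1355 bases apart, and are read in opposite directions. Its levels ran from -0.02 to 1.21 (median 0.94) in Cre control and from -0.82 to 0.65 (median 0.33) in BRAFV600E. The log2 fold change was -0.74 ± 0.29 (SE, limma adjusted p = 0.112). The MEKi arrays gave 0.35, 0.07, 0.62 and 1.24 and the Vehicle arrays -0.29, 0.16, 0.05 and -0.75, a difference of 0.78 ± 0.29 (log2, SE, limma adjusted p = 0.237). The other Cd3d probe, shown above, gave -0.88 ± 0.32 for BRAFV600E and 1.03 ± 0.31 for MEKi (log2, SE), the same signs as the brighter probe.

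The epsilon chain, Cd3e, stood apart from the other 2 chains. Its brightest probe gave 1.98, 4.69, 4.57, 1.90, 5.25 and 3.16 in Cre control replicates 1 to 6, a spread that Cd3d and Cd3g did not show. The 3 highest arrays, replicates 2, 3 and 5, are the same 3 on which the slope of the spike-in controls, which relates signal to the known amount of added RNA, was 0.77, 0.84 and 0.76, against 1.05 to 1.07 on the other 3. The BRAFV600E arrays ranged from 1.58 to 3.33, within the Cre control range but for 1 array. The log2 fold change was -1.13 ± 0.59 (SE, limma adjusted p = 0.219), and it was 0.12 without those 3 arrays. That setting left out Cre control arrays only and kept the BRAFV600E arrays of slope 0 described below, so it does not compare the groups at a like slope. The other Cd3e probe, at -2.31 ± 0.37 in BRAFV600E and -2.06 ± 0.60 in Cre control (mean ± SD, n = 6 each), differed by -0.25. In MEKi against Vehicle the 2 probes gave 0.28 and -0.10 on the log2 scale, neither of which passed the test. The part of the spike-in slope in the Cd3e levels was not tested.

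Among the coreceptors, Cd8a, the alpha chain of CD8, ranged from -2.13 to -1.06 (median -1.67) in Cre control and from -3.33 to -2.02 (median -2.39) in BRAFV600E. The groups overlapped by a single Cre control array, replicate 3. Cd8a was 1.78-fold lower in BRAFV600E (log2 fold change -0.83 ± 0.23 (SE), limma adjusted p = 0.0365, n = 6 and 6). Leaving out 1 array cost the call for Cre control replicates 1, 2, 5 and 6 and BRAFV600E replicates 2 and 3. The limma adjusted p was then between 0.0595 and 0.0667. The same 3 settings as for Cd3g gave 0.0627, 0.0531 and 0.0958, respectively. The Cd8a call was the less stable of the 2: over all 15 settings other than leaving out 1 array, Cd8a passed in 6 and Cd3g in 10. The Cd8a difference ran from -1.30 to -0.03 (log2) over these 15. The MEKi arrays gave -1.24, -1.55, -1.18 and -1.27 and the Vehicle arrays -2.38, -1.65, -2.32 and -2.55. These groups did not overlap, Vehicle replicate 2 being the array nearest to MEKi. The difference of 0.92 ± 0.21 (log2, SE) missed the threshold (limma adjusted p = 0.0728). The second Cd8a probe, shown above, gave -0.31 ± 0.43 for BRAFV600E and 0.85 ± 0.17 for MEKi (log2, SE), the latter again without overlap between the groups. Its Cre control levels lay between -4.33 and -1.95, and only 2 of the 4 Vehicle arrays were well above background.

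Cd8b1, the beta chain, did not follow the alpha chain in the first experiment. It ranged from -1.79 to -1.13 in Cre control and from -1.66 to -1.24 in BRAFV600E, so that the BRAFV600E range lay inside that of Cre control. The log2 fold change was -0.03 ± 0.15 (SE, limma adjusted p = 0.915), and its sign turned with quantile normalisation (0.02). In the second experiment the MEKi arrays gave -0.83, -1.40, -1.18 and -0.57, all above the Vehicle arrays at -1.50, -1.73, -1.61 and -1.69. That difference was 0.64 ± 0.19 (log2, SE, limma adjusted p = 0.146).

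Cd4 had 3 probes that gave 3 different pictures. The brightest, at chr6:124814711-124814770, ranged from 4.97 to 6.11 (median 5.68) in Cre control and from 4.99 to 6.55 (median 6.11) in BRAFV600E, a difference of 0.28 ± 0.33 (log2, SE, limma adjusted p = 0.601) that became -0.59 with slide as a block. It was the 1 brightest probe of the 10 genes with a higher mean in BRAFV600E and the 1 with a lower mean in MEKi, where the 4 arrays gave 6.01, 5.93, 5.47 and 6.01 against 6.69, 5.57, 6.69 and 5.94 in Vehicle (-0.37 ± 0.28, log2, SE, limma adjusted p = 0.585). The second probe, shown above, ranged from -3.63 to -2.17 in Cre control and from -5.30 to -2.64 in BRAFV600E, with a difference of -0.78 ± 0.43 (log2, SE). In the second experiment it differed by -0.04 ± 0.19. The third probe was well above background on 1 of the 20 arrays and gives only a bound. A Cd4 change therefore depends on the probe read, and none of them passed the test.

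Itgae, the integrin that anchors lymphocytes in the epithelium, passed in neither comparison. It ranged from -0.42 to 0.25 (median -0.31) in Cre control and from -0.76 to -0.08 (median -0.52) in BRAFV600E, which is a difference of -0.22 ± 0.16 (log2, SE, limma adjusted p = 0.375). MEKi gave -0.57, -0.87, -0.40 and -0.25 and Vehicle gave -0.88, -0.44, -0.996 and -1.002, a difference of 0.31 ± 0.19 (log2, SE, limma adjusted p = 0.485). Its second probe gave -0.36 ± 0.23 and 0.30 ± 0.21 (log2, SE) in the 2 comparisons. Itgae thus had the direction of most other members in both experiments, at a size that the spread between arrays covers.

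Of the effector genes, Gzma, granzyme A, ranged from 4.44 to 5.67 (median 5.48) in Cre control and from 2.52 to 5.25 (median 4.75) in BRAFV600E, with 2 BRAFV600E arrays, at 2.52 and 3.58, far below the rest. The log2 fold change was -0.97 ± 0.43 (SE, limma adjusted p = 0.152). MEKi gave 5.34, 4.67, 5.25 and 5.56, all above Vehicle at 3.88, 4.63, 4.55 and 3.47. The closest arrays of the 2 groups, at 4.67 and 4.63, were nearly level, and the difference was 1.07 ± 0.30 (log2, SE, limma adjusted p = 0.134).

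Gzmb, granzyme B, was the member that passed the test in the second experiment. MEKi gave 1.56, 0.85, 1.72 and 1.43 and Vehicle gave -0.34, 0.53, 0.31 and -0.37. The groups did not overlap. Gzmb was 2.57-fold higher in MEKi (log2 fold change 1.36 ± 0.27 (SE), limma adjusted p = 0.0496, n = 4 and 4), which is just inside the threshold of 0.05. Leaving out any 1 array other than MEKi replicate 2 or Vehicle replicate 2 raised the limma adjusted p to between 0.0998 and 0.158. In the first experiment it ranged from 0.63 to 1.65 (median 0.96) in Cre control and from -0.38 to 1.47 (median 1.02) in BRAFV600E, a difference of -0.30 ± 0.32 (log2, SE, limma adjusted p = 0.561) that turned to 0.16 without the 2 low arrays, BRAFV600E replicates 1 and 2.

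Nkg7, the granule membrane protein, ranged from 0.27 to 1.27 (median 1.20) in Cre control and from -0.83 to 0.84 (median 0.37) in BRAFV600E. All Cre control arrays but replicate 4 lay above all BRAFV600E arrays. The log2 fold change of -0.91 ± 0.28 (SE) missed the threshold (limma adjusted p = 0.0534), and it was -1.07 without replicate 4 (limma adjusted p = 0.0230) and -1.05 without BRAFV600E replicate 4 (0.0409). MEKi gave 1.29, 0.75, 1.12 and 1.58, all above Vehicle at 0.04, 0.56, 0.44 and -0.33. The difference was 1.01 ± 0.25 (log2, SE, limma adjusted p = 0.0925).

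**Figure D2:**
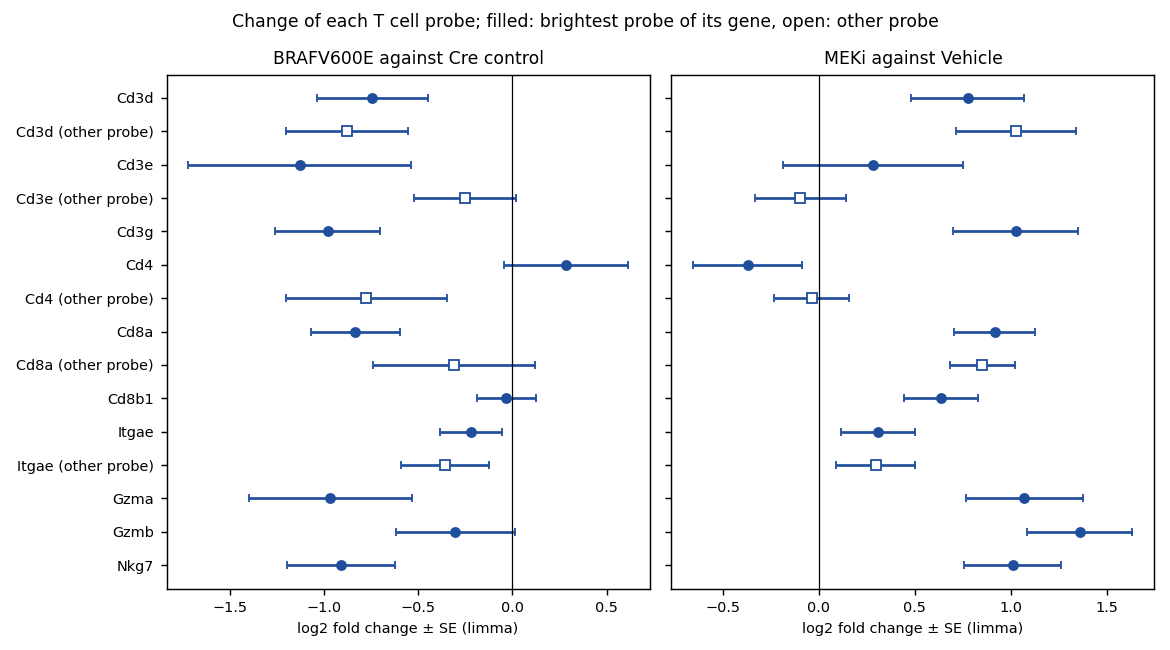
Log2 fold change with its SE from limma for the 15 member probes that passed the filter on dim signal, in both comparisons (left, BRAFV600E against Cre control; right, MEKi against Vehicle), filled for the brightest probe of a gene and open for another one. By their brightest probes, Cd3d, Cd3g, Cd8a, Gzma and Nkg7 lie near -0.74 to -0.98 on the left and near 0.78 to 1.07 on the right. The other Cd8a probe lies at -0.31 on the left, and the 2 probes of Cd4 lie on opposite sides of 0 on the left.

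For 5 genes (Cd8a, Cd8b1, Gzma, Gzmb and Nkg7) all MEKi arrays were above all Vehicle arrays, where 6.44% of all genes tested showed that pattern. For none of the 10 were the BRAFV600E and Cre control groups separate, where 7.36% of all genes did not overlap, 3.17% as lower. With array weights, which give less weight to arrays that fit the rest poorly, 6 of the 10 passed as higher in MEKi, where 3.08% of all genes did. MEKi and Vehicle arrays lay on 1 slide in separate rows, so row and treatment cannot be told apart. Sex differed as well: the mean level of 4 Y-linked genes was between -1.29 and -0.96 on all MEKi arrays, and on the Vehicle arrays it was -1.21, -5.94, -1.24 and -6.25. With that level as a covariate the Gzmb difference was 1.41 with a limma adjusted p of 0.169. The 4 other separate genes kept positive differences between 0.57 and 1.03 (log2), none of which passed the test, while only 53 genes in all passed in that fit.

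In the first experiment the slide divided the BRAFV600E arrays. All 6 Cre control arrays and BRAFV600E replicates 1 and 2 were on slide 1, and BRAFV600E replicates 3 to 6 were on slide 2, where the spike-in slope was 0. On slide 1 both BRAFV600E arrays were below every Cre control array for 7 of the 10 genes (Cd3d, Cd3g, Cd8a, Gzma, Gzmb, Itgae and Nkg7), where 15.1% of all genes tested showed this. They were also below all 4 BRAFV600E arrays of slide 2 for 9 of the 10 genes, Itgae being the exception, where 23.8% of all genes showed it. The 4 arrays of slide 2 were below every Cre control array for none of the 10, against 4.35% of all genes.

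Gzma shows the division most plainly. The 2 BRAFV600E arrays on slide 1 averaged 3.05, the 4 on slide 2 averaged 4.93 and the 6 Cre control arrays averaged 5.27. With slide as a block the Gzma difference was -2.22 (log2, limma adjusted p = 0.00415). In that fit 6 of the 10 genes passed as lower (Cd3d, Cd3g, Cd8a, Gzma, Gzmb and Nkg7), where 5.62% of all genes were called lower. As all Cre control arrays were on slide 1, its differences are those of the 2 BRAFV600E arrays of slide 1 from Cre control. The 4 arrays of slide 2 enter it only through the estimate of the spread, so it is no separate evidence from the fit within slide 1. Within slide 1 alone, with 2 BRAFV600E arrays against 6, 4 genes passed (Cd3d, Cd3g, Gzma and Nkg7), where 2.84% of all genes were called lower. Without those 2 arrays none of the 10 passed (4 at an unadjusted p under 0.05), where 3.40% of all genes did so as lower, and the difference was -0.64 for Cd3g and -0.60 for Cd8a, with limma adjusted p of 0.117 and 0.0932. In that last fit slide and genotype cannot be told apart. Whether the slide or the mice on it account for the division was not tested.

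The low arrays were also the lowest in epithelial markers. The mean level of 15 epithelial genes was 5.90 and 5.72 on the 2 BRAFV600E arrays of slide 1 and 5.89 on Cre control replicate 4, the array with the lowest Nkg7, Gzma, Cd3d and Cd3g of its group, while the other 9 arrays of that experiment lay between 6.16 and 6.37. Other markers were low on some of these arrays and not on others. The mean of 8 smooth muscle genes was 2.68 on BRAFV600E replicate 1, the highest of the 12 arrays. It was 1.84 on BRAFV600E replicate 2 and 1.86 on Cre control replicate 4. The mean of 16 myeloid genes was 0.19 and -0.10 on those 2 BRAFV600E arrays, the latter the lowest of the 12. On Cre control replicate 4 it was 1.27, exceeded only on Cre control replicate 2, at 1.42. The mean of 10 NK and innate lymphoid genes was lowest on the 2 BRAFV600E arrays, at -4.32 and -4.19, and highest on Cre control replicate 4, at -3.17. The part of tissue composition in the T cell levels was not tested. The targeted gene, Braf, differed by 0.42 ± 0.20 between BRAFV600E and Cre control (log2, SE, limma adjusted p = 0.172), and whether its probe can tell the mutant from the normal allele was not analysed here.

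Because the genes are read on the same arrays, their levels can be set against each other array by array. Taking Cd3g as the measure of T cells and removing each group's mean, Nkg7 followed it most closely over the 20 arrays (Pearson r = 0.946, Spearman rho = 0.884, permutation p = 1e-05 for each, the smallest that 100000 permutations can give). The brightest Cd3d probe had r = 0.891 and rho = 0.820, the other Cd3d probe r = 0.925 and rho = 0.866, and Gzma r = 0.888 and rho = 0.851. Weaker relations were those of Gzmb (r = 0.814, rho = 0.726), Cd8a (r = 0.718, rho = 0.744), Itgae (r = 0.607, rho = 0.550) and Cd8b1 (r = 0.504, rho = 0.393). The permutation p for r, adjusted over the 15 relations computed, was 3.75e-05 for Nkg7, Cd3d and Gzma, 0.00015 for Gzmb, 0.0009 for Cd8a, 0.0105 for Itgae and 0.0444 for Cd8b1. Without the 2 arrays farthest from the median of Cd3g, r was 0.919 for Nkg7, 0.851 for Gzma, 0.646 for Cd8a and 0.383 for Cd8b1. Within each group and slide it was 0.926, 0.844, 0.595 and 0.441, respectively.

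The brightest probes of Cd3e (r = 0.482, rho = 0.408) and Cd4 (r = 0.476, rho = 0.325) had an adjusted permutation p of 0.0534 each. Their other probes gave r between -0.37 and -0.01, and the second probes of Cd8a and Itgae gave -0.27 and -0.23. A gene of the set could therefore follow Cd3g at 1 probe and not at another, whereas Cd3d followed it at both of its probes. Cd3g was taken as the measure after the levels had been seen.

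**Figure D3:**
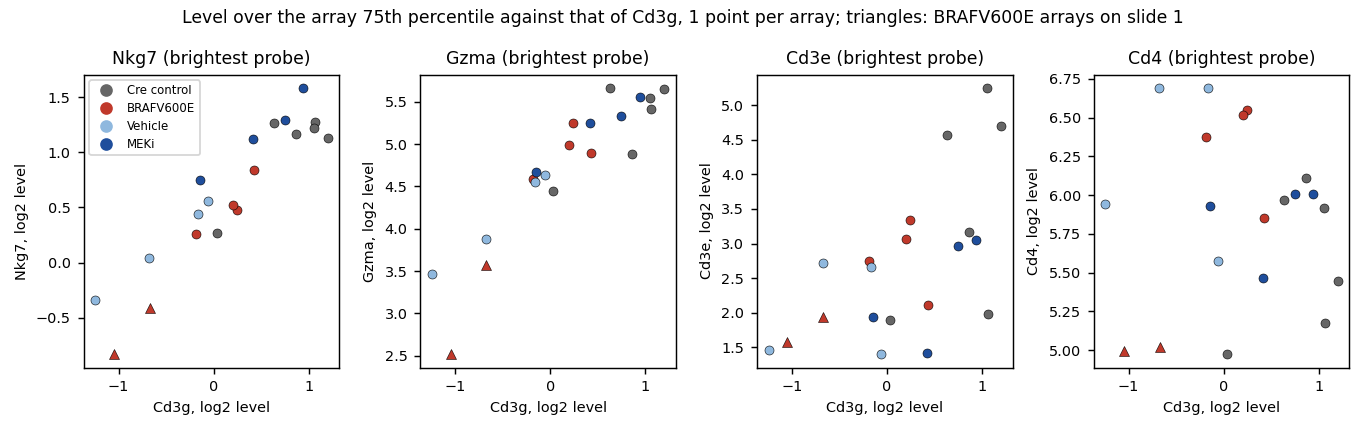
Log2 level of Nkg7, Gzma, Cd3e and Cd4 (brightest probes) against that of Cd3g on each of the 20 arrays, coloured by group, with the 2 BRAFV600E arrays of slide 1 as triangles. Nkg7 and Gzma rise with Cd3g across groups, whereas Cd3e reaches 5.25 on Cre control arrays and Cd4 shows no clear order.

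The differences between genes within an array ask whether the members changed by unequal amounts, 10 differences in each of the 2 comparisons. One of the 20 passed. Cd4, by its brightest probe, minus the mean of the 3 CD3 chains was 5.09 ± 0.26 in BRAFV600E and 3.86 ± 0.54 in Cre control (log2, mean ± SD, n = 6 each, no overlap), a difference of 1.24 (exact permutation p = 0.00216, the smallest that 6 against 6 arrays can give, and 0.0433 adjusted over the 20). With the second Cd4 probe the same quantity differed by 0.18 (exact permutation p = 0.790), so the result rests on the brightest probe. Within slide 1 the difference by the brightest probe was 1.07 (exact permutation p = 0.0714 with 2 against 6 arrays). Both BRAFV600E arrays of that slide lay above all 6 Cre control arrays, so this p is the smallest that the test can give there.

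Cd8b1 minus Cd8a, the balance of the beta and alpha chains of CD8, was 0.96 ± 0.41 in BRAFV600E and 0.16 ± 0.47 in Cre control (log2, mean ± SD, n = 6 each). The difference of 0.80 had an exact permutation p of 0.0130 and 0.101 after adjustment. Cd8b1 minus the CD3 mean differed by 0.92 (exact permutation p = 0.0281, adjusted 0.141), and by 0.83 with an adjusted permutation p of 0.0433 where Cd3e was left out of the mean. Nkg7, Gzma and Cd8a minus the CD3 mean differed by 0.04, -0.02 and 0.12, each with an adjusted permutation p of 0.904 or more.

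In MEKi against Vehicle the largest of these differences were that of Cd8a minus Cd4, at 1.29 (exact permutation p = 0.114), and that of Cd4 minus the CD3 mean, at -1.07 (exact permutation p = 0.0571), both with the brightest Cd4 probe. With the second Cd4 probe the latter was -0.73 and the groups did not overlap (exact permutation p = 0.0286, adjusted 0.190). Gzmb minus the CD3 mean differed by 0.67 (exact permutation p = 0.0857) and Gzmb minus Gzma by 0.29 (exact permutation p = 0.114). With 4 against 4 arrays the smallest exact p is 0.0286, so that a difference standing alone cannot pass after adjustment over 20.

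**Figure D4:**
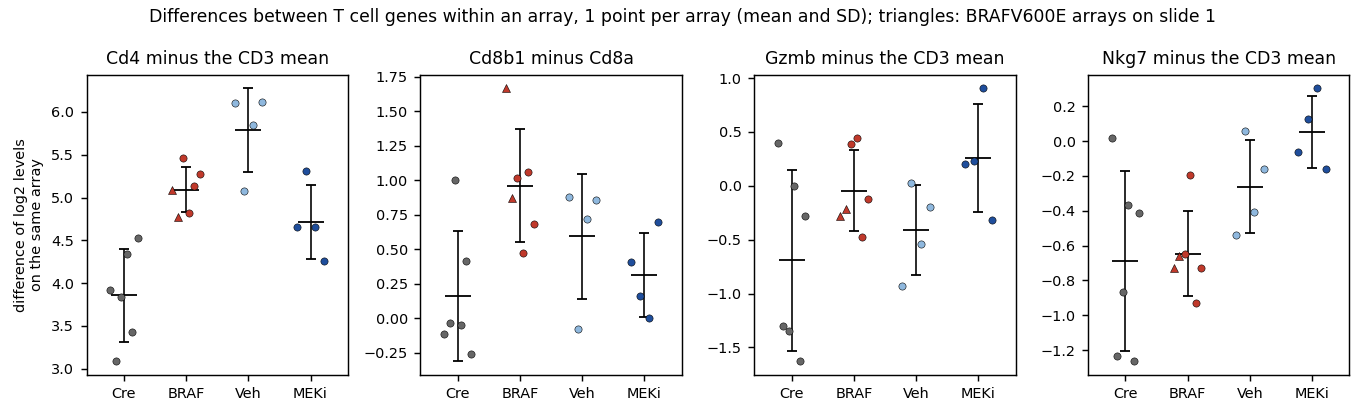
Difference of 2 log2 levels on the same array for 4 pairs, by group, with mean and SD. Cd4 (brightest probe) minus the CD3 mean lies between 4.77 and 5.47 in BRAFV600E, above all Cre control arrays, and Nkg7 minus the CD3 mean overlaps between these groups.

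The other genes of the T cell receptor pathway were mostly, but not all, lower in mean in BRAFV600E. Of 18 signalling and surface genes, 16 had a lower mean in BRAFV600E, 4 passed as lower and 1 as higher, with a median log2 fold change of -0.39. Of all genes tested, 6.26% passed as lower and 6.18% as higher. Lck, the kinase that CD4 and CD8 bring to the receptor, fell by 0.93 ± 0.25 in log2 units (SE, limma adjusted p = 0.0293). The adaptor Skap1 fell by 1.04 ± 0.30 (limma adjusted p = 0.0395) and Ubash3a, a regulator of receptor signalling, by 0.89 ± 0.27 (limma adjusted p = 0.049999, just under the threshold). Bcl11b, a transcription factor of the T lineage, rose by 0.43 ± 0.11 (limma adjusted p = 0.0232) without overlap between the groups. Cd247, the zeta chain of the receptor complex, differed by -0.30 ± 0.57 with a limma adjusted p of 0.774. In MEKi against Vehicle 15 of the 18 had a higher mean, with a median of 0.44. None passed, Lck standing at 0.82 ± 0.26 (limma adjusted p = 0.170). At an unadjusted limma p under 0.05 there were 7 of the 18, where 16.4% of all genes were. Of the receptor chains themselves only Tcra was read by a named probe, at -4.22 in BRAFV600E and -4.10 in Cre control on average.

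Of 18 further cytotoxic genes, 17 were tested in the first comparison and 14 had a lower mean in BRAFV600E. Of these genes 2 passed, both as lower, where 12.4% of all genes passed in either direction. The 2 were Tbx21 (T-bet, a transcription factor of cytotoxic lymphocytes), which fell by 1.02 ± 0.25 in log2 units (SE, limma adjusted p = 0.0202), and Fasl, the death receptor ligand, which fell by 0.81 ± 0.23 (limma adjusted p = 0.0398). Perforin, Prf1, the pore former that granzymes depend on, differed by -0.31 ± 0.20 (limma adjusted p = 0.333). In MEKi against Vehicle 12 of 16 had a higher mean, with a median of 0.52, and none passed the limma test. At an unadjusted limma p under 0.05 there were 9, where 16.4% of all genes were. The groups did not overlap for 3, all higher in MEKi, where 6.44% of all genes showed that pattern. Tbx21 differed by 0.96 ± 0.23 (limma adjusted p = 0.0831), Fasl by 0.88 ± 0.18 (0.0545) and Prf1 by -0.16 ± 0.19 (0.752). Ifng, interferon gamma, was well above background on all 4 MEKi arrays and 1 Vehicle array, and its difference of 1.47 ± 0.46 did not pass (limma adjusted p = 0.164).

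Of 21 genes of the intraepithelial niche tested in the first comparison, 15 had a lower mean in BRAFV600E, 3 passed as lower and 1 as higher. Of all genes, 12.4% passed in either direction. Itga1, an integrin of tissue-resident lymphocytes, fell by 2.36 ± 0.63 in log2 units (SE, limma adjusted p = 0.0311), with Cre control levels as widely spread as those of Cd3e (SD 1.49). Btnl6, a butyrophilin-like gene of enterocytes, fell by 1.096 ± 0.28 (limma adjusted p = 0.0264) and Ccl25, an epithelial chemokine that draws lymphocytes to the small intestine, by 0.70 ± 0.20 (limma adjusted p = 0.0438, fitted on 11 arrays as 1 value was left out). Cdh1, E-cadherin, the ligand of the Itgae product, rose by 0.61 ± 0.14 (limma adjusted p = 0.0178). Il15, a cytokine that maintains these lymphocytes, and Btnl1, a partner of Btnl6, differed by 0.30 ± 0.36 and -0.15 ± 0.14, with limma adjusted p of 0.619 and 0.515. In MEKi against Vehicle none of 22 passed (limma; 6 at an unadjusted p under 0.05, where 16.4% of all genes were).

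**Figure D5:**
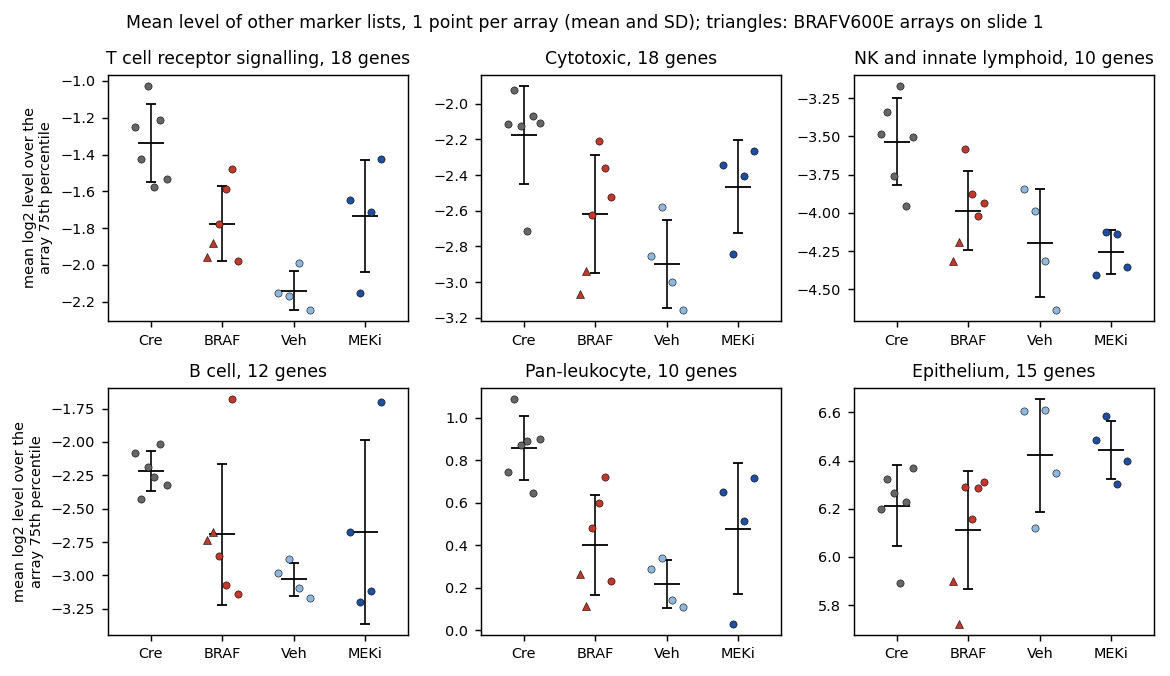
Mean log2 level of 6 other marker lists on each array, by group, with mean and SD. The T cell receptor signalling, cytotoxic, B cell and pan-leukocyte lists have a lower group mean in BRAFV600E than in Cre control. Their group mean is also lower in Vehicle than in MEKi. The epithelium list has the same order with smaller gaps (6.11 against 6.21, and 6.42 against 6.44). The NK and innate lymphoid list is lower in BRAFV600E but not in Vehicle (-4.20, against -4.26 in MEKi). In the B cell list 1 BRAFV600E and 1 MEKi array stand out at -1.68 and -1.70.

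Granzymes and Nkg7 are also made by NK cells, so markers of other leukocytes are given beside them. Of 10 NK and innate lymphoid genes, the probes of Klra4 and Klra7 were never well above background, and the summed scaled signal of the list ran from 1.85 to 5.74 in Cre control, 1.81 to 3.77 in BRAFV600E, 0.916 to 1.39 in MEKi and 0.937 to 2.69 in Vehicle. Klrb1c (NK1.1) fell by 1.39 ± 0.25 in log2 units in BRAFV600E (SE, limma adjusted p = 0.00549) without overlap, and differed by 0.17 ± 0.23 in MEKi. Itga2 (CD49b), an integrin of NK cells, rose by 1.27 ± 0.34 in BRAFV600E (limma adjusted p = 0.0298). Of the 7 genes of the list tested in that comparison, 4 had a lower and 3 a higher mean. Ncr1, a defining NK receptor, was well above background on 3 MEKi arrays and 1 Vehicle array and was too dim to be tested in the first comparison. Of 10 pan-leukocyte genes, 8 had a lower mean in BRAFV600E and 1 passed, Cd48, which fell by 1.65 ± 0.18 (limma adjusted p = 0.000226), while Ptprc (CD45), carried by all leukocytes, differed by -0.16 ± 0.13 and by 0.07 ± 0.14 in MEKi (limma adjusted p = 0.441 and 0.872). In MEKi against Vehicle 8 of the 10 pan-leukocyte genes had a higher mean and none passed. The summed signal of the pan-leukocyte list ran from 35.7 to 48.9 in Cre control, 23.8 to 43.6 in BRAFV600E, 20.6 to 43.0 in MEKi and 24.2 to 28.3 in Vehicle.

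Of 12 B cell genes, 10 had a lower mean in BRAFV600E and Pax5 passed (-0.64 ± 0.15, log2, SE, limma adjusted p = 0.0197). In MEKi against Vehicle 9 of the 11 tested had a higher mean and none passed. MEKi replicate 4, which had the highest Cd3d, Cd3g, Cd8b1, Gzma, Itgae and Nkg7 of its group, also had the highest B cell mean, at -1.70 against -3.20 to -2.67 on the other 3. Of 15 myeloid genes tested, 3 passed as lower in BRAFV600E, where 6.26% of all genes did. Among them was the lysozyme gene Lyz2 (-1.75 ± 0.33, log2, SE, limma adjusted p = 0.00618). No myeloid gene passed in MEKi (limma; 3 at an unadjusted p under 0.05, where 16.4% of all genes were). Of 10 helper and regulatory T cell genes tested, Il7r, the interleukin 7 receptor, passed as lower in BRAFV600E (-0.76 ± 0.21, log2, SE, limma adjusted p = 0.0342). Of 11 tested in MEKi against Vehicle, 9 had a higher mean and none passed. Of 8 plasma cell genes, 7 had a lower mean in BRAFV600E, with a median of -0.66. At an unadjusted limma p under 0.05 there were 6 of the 8, where 30.1% of all genes were. But the 1 that passed after adjustment, Sdc1 (syndecan 1), rose by 0.76 ± 0.15 (limma adjusted p = 0.00801). In MEKi all 8 had a lower mean and Sdc1 fell by 0.81 ± 0.13 (limma adjusted p = 0.0263). Mast cell genes were higher in mean in MEKi for 6 of 7 tested, with a median of 0.75, and Kit, a receptor of mast cells and other cells, rose by 0.75 ± 0.15 without overlap (limma adjusted p = 0.0463), while Tpsab1 and Ms4a2 were never well above background. Smooth muscle genes were higher in mean in MEKi for 7 of 8, with a median of 0.68 and none called (limma; 0 at an unadjusted p under 0.05), and their mean level was 0.98 and 0.21 on Vehicle replicates 2 and 4 against 2.30 and 2.37 on the other 2. The part of these other cells in the member levels was not tested.

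The genes whose levels were most like those of the CD3 chains depended on Cd3e. Of the 15374 genes well above background on all 20 arrays, members and genes of the lists were set aside. The closest of the rest to the mean of Cd3d, Cd3e and Cd3g, after removing group means, were Eif2b4 (r = 0.960), Gm16381 (0.951), Coq8b (0.946), Ipo13 (0.945) and Cuta (0.944), followed by Atp5k, Ndufa3, Mrpl14, Arrdc1 and Ubl5 (0.941 to 0.935). With Cd3d and Cd3g alone they were Cst7 (0.953), a protease inhibitor of cytotoxic cells, Gimap3 (0.945), a GTPase of lymphocytes, and Cd7 (0.922), a T and NK cell surface protein, followed by Otulin, Hcst, Eif2b4, Klra5, Susd3, Ciapin1 and Pglyrp2 (0.8999 to 0.871). These correlations describe 20 arrays that share labelling and scaling. The second set of 10 was chosen after the Cd3e levels had been seen.

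Promoters of 7 members were at hand from RefSeq (GRCm38.p6, 250 bases before to 50 after the start), and those of the 3 effector genes are printed because they were the 3 that held the RUNX core TGTGGT on either strand, a motif bound by factors of the cytotoxic lineage. The motif stood in 16.8% of all 32851 promoters of this length. The ETS core AGGAAG stood in 3 of the 7 (Cd3d, Cd3e and Nkg7) and in 35.4% of all, and TATAAA in none of the 7 and in 13.6% of all. Motifs found on either strand are in capitals, the RUNX core appearing as ACCACA where it lies on the other strand, and a match is a description of these letters only.
Gzmb, chr14:56262285-56262584 (- strand): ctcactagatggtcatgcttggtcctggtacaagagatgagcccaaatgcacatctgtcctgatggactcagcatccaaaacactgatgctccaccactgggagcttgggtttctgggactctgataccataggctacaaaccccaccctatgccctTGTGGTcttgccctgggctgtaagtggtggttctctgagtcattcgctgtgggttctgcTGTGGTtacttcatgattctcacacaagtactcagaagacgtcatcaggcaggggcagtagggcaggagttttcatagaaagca
Gzma, chr13:113100932-113101231 (- strand): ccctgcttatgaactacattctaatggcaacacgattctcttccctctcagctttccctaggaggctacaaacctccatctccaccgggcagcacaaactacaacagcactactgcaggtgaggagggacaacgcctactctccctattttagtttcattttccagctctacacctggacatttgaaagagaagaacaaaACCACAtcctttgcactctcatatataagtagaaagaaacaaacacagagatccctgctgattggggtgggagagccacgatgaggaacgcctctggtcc
Nkg7, chr7:43436888-43437187 (+ strand): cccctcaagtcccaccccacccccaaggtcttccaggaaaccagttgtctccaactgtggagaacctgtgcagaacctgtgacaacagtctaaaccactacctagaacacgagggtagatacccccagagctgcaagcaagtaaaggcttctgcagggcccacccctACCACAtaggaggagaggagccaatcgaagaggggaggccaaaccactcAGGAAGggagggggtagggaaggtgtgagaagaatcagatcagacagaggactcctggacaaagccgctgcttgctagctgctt
Gzmb, the member called in MEKi, held the RUNX core at 2 places, both on the strand of the gene, and Gzma and Nkg7 held it at 1 place each on the other strand. Cd3g and Cd8a, the 2 genes that passed in BRAFV600E, held none of the 3 motifs in this window.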

How the data were processed

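RNA of 20 mice was hybridised to 1-colour Agilent mouse arrays of 62976 spots. The authors deposited scanner output of Agilent Feature Extraction (version 10.5.1.1, per the submitters' processing notes) with processed intensity per spot and 0/1 marks for background, saturation and outliers. They also deposited a table of processed intensity without scaling between arrays, used after log2 as an alternative. Here log2 intensity minus the 75th percentile of the array was taken, control and outlier spots were left out, spots of a probe were averaged, the brightest probe stood for a gene, and genes well above background on at least 6 arrays (BRAFV600E against Cre control) or 4 (MEKi against Vehicle) were tested with limma 3.58.1 (R 4.3.3), Benjamini-Hochberg adjusted over all genes at 0.05. The number of arrays limits precision, and p-values measure the spread between arrays of a group, each from 1 mouse. In BRAFV600E that spread also holds any difference between its 2 slides. Balance tests and correlations used Python 3.11.15. The script was tested on simulated data. Alternatives covered background correction, scaling, filter, probe choice, variance model, array weights, slide, Y-linked level and leaving out arrays. Those without the 2 BRAFV600E arrays of slide 1, without the 3 Cre control arrays of low spike-in slope, without Cd3e in the CD3 mean and with the second Cd4 probe were chosen after seeing the data. The members and lists were chosen with earlier results of these data known. Genes named were all members, the called genes of each list (at most the 4 of largest change) and Ptprc, Prf1, Ifng, Cd247, Lck, Ncr1, Il15, Btnl1 and Braf whatever their values, and the 10 genes most like the CD3 mean. Some genes that this rule names are not reported here. A treatment text in the labels describes another drug study for all 20 samples and was not used.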

Additional observations from a re-analysis of the deposited data

Results flagged for a closer look

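Of 104 sets of 4 or 6 arrays examined for a value far from the rest, 4 held one, where chance gives about 1 in 20. The brightest Cd4 probe was at 5.47 in MEKi replicate 3 and between 5.93 and 6.01 on the other 3 MEKi arrays. Cd8a was at -3.33 in BRAFV600E replicate 1 and between -2.50 and -2.02 on the other 5. Nkg7 was at 0.27 in Cre control replicate 4 and between 1.13 and 1.27 on the other 5. Cd8b1 minus Cd8a was at -0.0771 in Vehicle replicate 2 and between 0.72 and 0.88 on the other 3. All are log2 values.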

How the results depend on the processing

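No paired analysis was possible because the labels carry no replicate numbers. For BRAFV600E against Cre control, the 2 member genes called became 4 with normexp background correction and within slide 1, 6 with slide as a block, 1 with the mean of all probes and with array weights, and 0 with no filter, with the Y-linked level as a covariate, without the 2 BRAFV600E arrays of slide 1 and without the 3 Cre control arrays of low spike-in slope. The 2369 genes called became 4642 (1589 higher, 3053 lower) with normexp and 9332 (9155 higher, 177 lower) without scaling. With each probe tested, 3591 of 38501 probes were called, which is a count of probes and not of genes. The genes called were 1535 (464 higher, 1071 lower) with slide as a block and 734 within slide 1. They were 1468 and 426 without those 2 and those 3 arrays. Leaving out 1 array gave 1442 to 2858 genes (1526 without Cre control replicate 2, 1442 without 3) and 0 to 4 members: 0 without Cre control replicates 1, 2, 5 or 6 or BRAFV600E replicates 2 or 3, 1 without Cre control replicate 3 or BRAFV600E replicate 1, 3 without BRAFV600E replicate 4 and 4 without Cre control replicate 4. For MEKi against Vehicle, the 1 member called became 6 with array weights. It became 0 without scaling, with no filter, with the mean of probes, with each probe tested and with the Y-linked covariate. The 380 genes became 1129, 72, 234 and 239 in the settings named before that of each probe, and 53 with the covariate. With each probe tested, 364 of 39249 probes were called. Leaving out 1 array gave 76 to 376 genes (76 and 89 and 147 without MEKi replicates 1, 3 and 4, and 191, 117 and 98 without Vehicle replicates 1, 3 and 4) and 0 to 2 members, 0 without those same 6 arrays and 2 without Vehicle replicate 2. The 1 balance test that passed became 0 with the second Cd4 probe and 2 without Cd3e in the CD3 mean. Leaving out 1 array gave 0 to 2, with 2 without Cre control replicate 3 and 0 without any other array of that experiment, where 5 against 6 arrays cannot go below 0.0866 for a test standing alone.

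Signs turned as follows in BRAFV600E against Cre control (log2). Without scaling, Cd3d became 0.0666, Cd8b1 0.78, Gzmb 0.51 and Itgae 0.59. Cd4 became -0.11 with the mean of probes and -0.59 with slide as a block and within slide 1. Cd8b1 became 0.0238 with quantile normalisation, 0.0472 without the 2 BRAFV600E arrays of slide 1, 0.0601 without the 3 Cre control arrays, and -0.0987 to 0.0329 with 1 array left out. Cd3e became 0.12 without those 3 arrays and Gzmb 0.16 without those 2. Gzma minus the CD3 mean became 0.0564 with normexp and ran from -0.11 to 0.16 with 1 array left out. Nkg7 minus the CD3 mean became -0.0492 without Cd3e and ran from -0.0747 to 0.18, and Cd8a minus the CD3 mean ran from -0.0657 to 0.33. In MEKi against Vehicle, Cd3e became -0.34 with the Y-linked covariate, Cd4 0.0518 with the mean of probes, and Cd8b1 minus the CD3 mean ran from -0.19 to 0.13. The cause of these changes was not tested, and arrays hold no read depth, so that signal over background limits the dim probes.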
